A study of Homo sapiens with 14 samples.

Results

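Imprinted genes, which are transcribed from the allele of one parent only, were followed through the peak lists of a chromatin immunoprecipitation sequencing (ChIP-seq) experiment in human embryonic stem cells (hESCs). The set held 31 of 38899 protein-coding and long non-coding RNA (lncRNA) genes of GENCODE release 44 on the autosomes and sex chromosomes of hg38. The 31 genes were chosen by name as well-known human imprinted genes and not by any measured value, though earlier results of these data were known. Of these, 27 were protein-coding and 4 were lncRNA genes. The cells were WIBR3, an established hESC line, grown on mouse feeder cells in the primed condition that is standard for hESCs or in 5i/L/A, a naïve medium into which primed cells were reset and then expanded without picking single clones. Antibodies recognised BRG1 (SMARCA4) and BRM (SMARCA2), the alternative ATPases of the BAF chromatin remodelling complex, BAF155 (SMARCC1), a scaffold subunit of the complex, and the transcription factor SOX2. Of 14 samples, 4 were input controls and 10 came with a list of peaks, which are stretches where the authors' peak caller found more reads than in the input. Both SOX2 libraries of each state came with the same peak coordinates and were counted as 1 sample, and every other antibody had 1 library per state. No value below therefore has a replicate error, no test was possible, and every comparison is between these libraries and not between the conditions. The primed BRM list, with 167 peaks, had 0 in the windows of the imprinted genes and was not used further. As a check of the labels, BAF peaks lay at the promoters of 4 of 5 naïve marker genes in naïve cells only (TFCP2L1 had them in both states), and at those of 5 primed marker genes in primed cells only for THY1 and in both states for the other 4. SOX2 libraries were read paired-end and BAF libraries single-end on another instrument, so antibody and sequencing cannot be told apart between these proteins.

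Imprinting begins in the germ line, where DNA methylation is laid down at imprinting control regions on the maternal or the paternal chromosome and is then kept through the reprogramming of the early embryo. The zinc finger protein ZFP57 reads the methylated copy of many of these regions, whereas CTCF binds the unmethylated copy of the H19 control region and insulates IGF2 from shared enhancers. Naïve media of this kind are known to erase such methylation in hESCs, while primed cells largely keep it. DNA methylation was not measured in these samples, and peak lists do not tell the parental alleles apart.

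The sequences below belong to the sites described further on and are read 5′ to 3′ from the plus strand of hg38. The first group is shown because one naïve BRG1 peak at H19, chr11:2000666-2003262, held 4 matches to the core of the CTCF motif in the form known from the H19 control region, searched on both strands. Capitals mark each match, here on the minus strand, with the bases on either side in lower case.
H19 match 1, chr11:2000768-2000807: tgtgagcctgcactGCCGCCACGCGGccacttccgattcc
H19 match 2, chr11:2002201-2002240: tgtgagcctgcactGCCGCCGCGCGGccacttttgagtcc
H19 match 3, chr11:2002602-2002641: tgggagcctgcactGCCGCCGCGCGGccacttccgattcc
H19 match 4, chr11:2003007-2003046: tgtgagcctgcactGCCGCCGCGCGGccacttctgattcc
Of 57880 naïve BRG1 peaks whose central 300 bases held no unknown base, 1855 (3.20%) had any such match along their length, and 2 (0.00346%), the H19 peak among them, had 4 or more. The peak was 2597 bp wide, and wide peaks have more room for matches. The form searched was that of the H19 control region, and the peak was picked as the one at H19 with the most matches. Its place among all peaks was thus partly set by these choices. The H19 peak also held 7 matches to TGCCGC, the letters read by ZFP57, of which 4 overlapped the CTCF-form matches. One further stretch is shown for KCNQ1OT1, as the 200 bases of its promoter peak in naïve BAF155 with the most TGCCGC matches, 3 in all, and capitals mark them.
KCNQ1OT1 promoter stretch, chr11:2699327-2699526: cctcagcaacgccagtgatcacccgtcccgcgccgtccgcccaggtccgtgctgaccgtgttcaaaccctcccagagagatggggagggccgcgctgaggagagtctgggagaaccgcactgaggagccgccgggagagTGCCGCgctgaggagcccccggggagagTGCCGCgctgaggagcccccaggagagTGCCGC
The next sequences are whole peaks, that of primed BRG1 at the H19 start that GENCODE calls canonical and that of naïve BAF155 just upstream of PEG3. Capitals in the H19 site mark ATGCAAA, the short form of the octamer bound by OCT4 and its relatives, here as its reverse complement. The PEG3 site held none, and the octamer form was searched only after the sequences had been read.
H19 upstream site, chr11:2004553-2004700: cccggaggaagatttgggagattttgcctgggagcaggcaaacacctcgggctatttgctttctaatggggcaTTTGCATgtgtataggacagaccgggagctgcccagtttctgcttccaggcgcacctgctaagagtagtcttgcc
PEG3 upstream site, chr19:56840858-56841090: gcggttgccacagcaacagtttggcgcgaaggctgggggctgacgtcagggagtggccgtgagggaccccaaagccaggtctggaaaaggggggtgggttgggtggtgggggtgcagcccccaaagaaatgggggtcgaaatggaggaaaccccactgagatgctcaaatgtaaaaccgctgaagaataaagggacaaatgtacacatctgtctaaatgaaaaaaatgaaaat
The last group holds SOX2 sites. The first 3 are 160 bases around the summit that the authors' peak caller gave to SOX2 peaks at PLAGL1 and KCNQ1, with the SOX cores ACAAAG and ACAATG, or their reverse complements, in capitals. For SNRPN, 30 bases around the octamer form are shown from 2 peaks at different starts of the gene, with that form in capitals.
KCNQ1 primed SOX2 site, chr11:2721265-2721424: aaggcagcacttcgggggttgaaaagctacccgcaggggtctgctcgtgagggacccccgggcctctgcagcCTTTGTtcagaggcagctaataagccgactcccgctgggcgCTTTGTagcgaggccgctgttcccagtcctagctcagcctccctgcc
PLAGL1 primed SOX2 site, chr6:143973157-143973316: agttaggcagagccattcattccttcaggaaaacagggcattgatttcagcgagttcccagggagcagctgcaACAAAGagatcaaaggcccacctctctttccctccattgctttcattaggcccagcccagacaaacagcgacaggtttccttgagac
PLAGL1 naive SOX2 site, chr6:143930086-143930245: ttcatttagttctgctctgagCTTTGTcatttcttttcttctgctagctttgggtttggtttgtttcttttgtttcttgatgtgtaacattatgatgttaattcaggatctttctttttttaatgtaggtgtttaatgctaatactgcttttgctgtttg
SNRPN start with SOX2 in both states, chr15:24856630-24856659: aatgcagttctTTTGCATaagaaaggcttt
SNRPN start with primed SOX2, chr15:24823752-24823781: aatgcggccttTTTGCATaagaaaggcttt

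To ask how many imprinted genes carried each protein at a promoter, a gene was counted when any base of a peak lay within 1 kb of any of its transcript starts. In naïve cells BRG1 was found at 25 of the 31 promoters, against 48.3% of all genes and 66.8% of protein-coding genes. Naïve BAF155 was found at 24 promoters, with 48.2% of all genes and 67% of protein-coding genes as background. Naïve BRM marked 11 promoters, where the background was 15.7% and 22.6%. These 3 counts lie above the background, but the imprinted genes also had a median of 9 transcript starts, against 2 for all genes and 5 for protein-coding genes, and thus more places where a peak could fall.

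In primed cells BRG1 was found at 15 promoters (23.3% of all genes and 33.8% of protein-coding genes), and BAF155 at 23 (52.4% and 72.7%). The drop in BRG1 from 25 to 15 was accompanied by a shorter list, with 57884 peaks in naïve and 15611 in primed cells. With both BRG1 lists limited to the same number of highest-fold peaks, 13 promoters carried BRG1 in naïve cells and 15 in primed cells, so the direction depended on list length. The number of reads behind the lists was not used here, and the lack of a peak means that no call passed the authors' threshold, not that the protein was absent. SOX2 marked 1 promoter in naïve cells, against 0.509% of all genes and 0.659% of protein-coding genes, and 5 in primed cells, against 4.31% and 5.62%. By state, 1 promoter had SOX2 in both (0.332% of all genes), 0 in naïve cells only (0.177%), 4 in primed cells only (3.98%) and 26 in neither (95.5%).

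**Figure D1:**
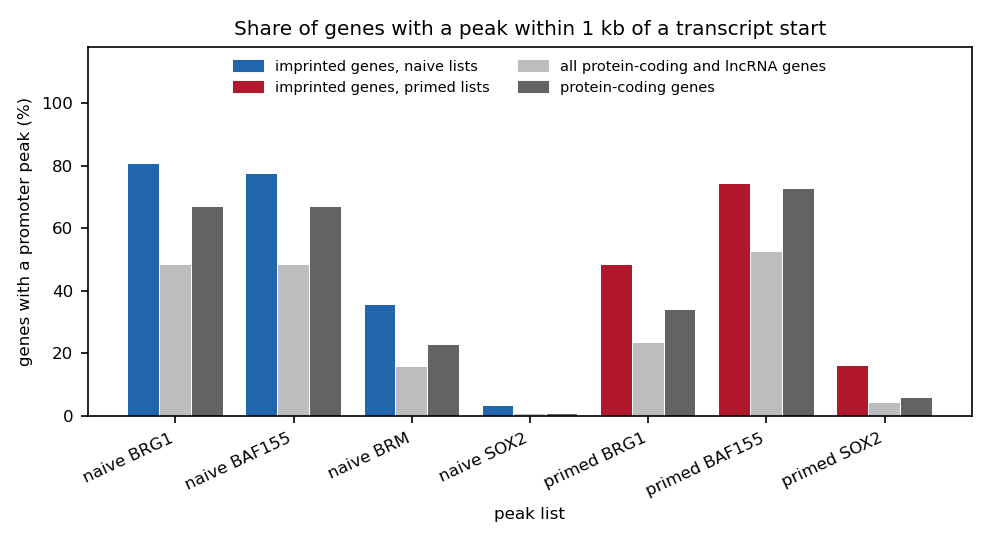
Share of genes (vertical axis, percent) with a peak within 1 kb of a transcript start, for each of the 7 peak lists on the horizontal axis. Coloured bars are the 31 imprinted genes (blue naïve, red primed), light grey bars all 38899 genes and dark grey bars the 20033 protein-coding genes. The coloured bar is the tallest of the 3 in every list, and for primed BAF155 it stands close to the bar of protein-coding genes. No error bars are drawn because each list is a single sample.

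Within windows of the gene body and 10 kb on each side, 29 imprinted genes had a naïve BRG1 peak (71.8% of all genes and 83.5% of protein-coding genes), 27 a naïve BAF155 peak (71.8% and 83.7%), 17 a naïve BRM peak (36.8% and 46.5%) and 3 a naïve SOX2 peak (4.84% and 6.15%). The primed counts were 16 for BRG1 (39.2% and 48.9%), 26 for BAF155 (73.9% and 84.9%) and 9 for SOX2 (18.4% and 21.5%). Set beside protein-coding genes, the counts of BAF155 were near the background in both states. The imprinted genes had a median length of 30.7 kb, against 14.9 kb for all genes and 27.5 kb for protein-coding genes. Longer windows have more room for peaks, and the window counts were not adjusted for length. Counted gene by gene, 24 windows held more naïve than primed BRG1 peaks (60.1% of all genes) and 2 more primed ones (3.76%), namely those of PLAGL1 and ZDBF2. With both BRG1 lists at the same length, 12 windows held more naïve peaks (19.7% of all genes) and 8 more primed ones (23.3%), so this count too depended on list length. For BAF155, 13 windows held more naïve peaks (34.2%) and 9 more primed ones (27.7%). For SOX2, 8 windows held more primed peaks (16.5%), 0 more naïve ones (1.75%), and 3 had SOX2 in both states (3.21%). The windows of 14 genes overlapped that of another, so imprinted genes of one locus shared peaks and were not independent. Merged, the windows formed 23 stretches of 2464 kb in all. They held 91 naïve BRG1, 87 BAF155, 31 BRM and 3 SOX2 peaks, and 27 primed BRG1, 78 BAF155 and 19 SOX2 peaks. At equal list length the naïve BRG1 peaks numbered 31, against the 27 primed ones. Per kilobase, the full lists had in these windows between 1.68 times (primed BAF155) and 2.56 times (primed SOX2) their density over the genome. The genome also holds stretches far from any gene, and the density over the windows of all genes was not computed.

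**Figure D2:**
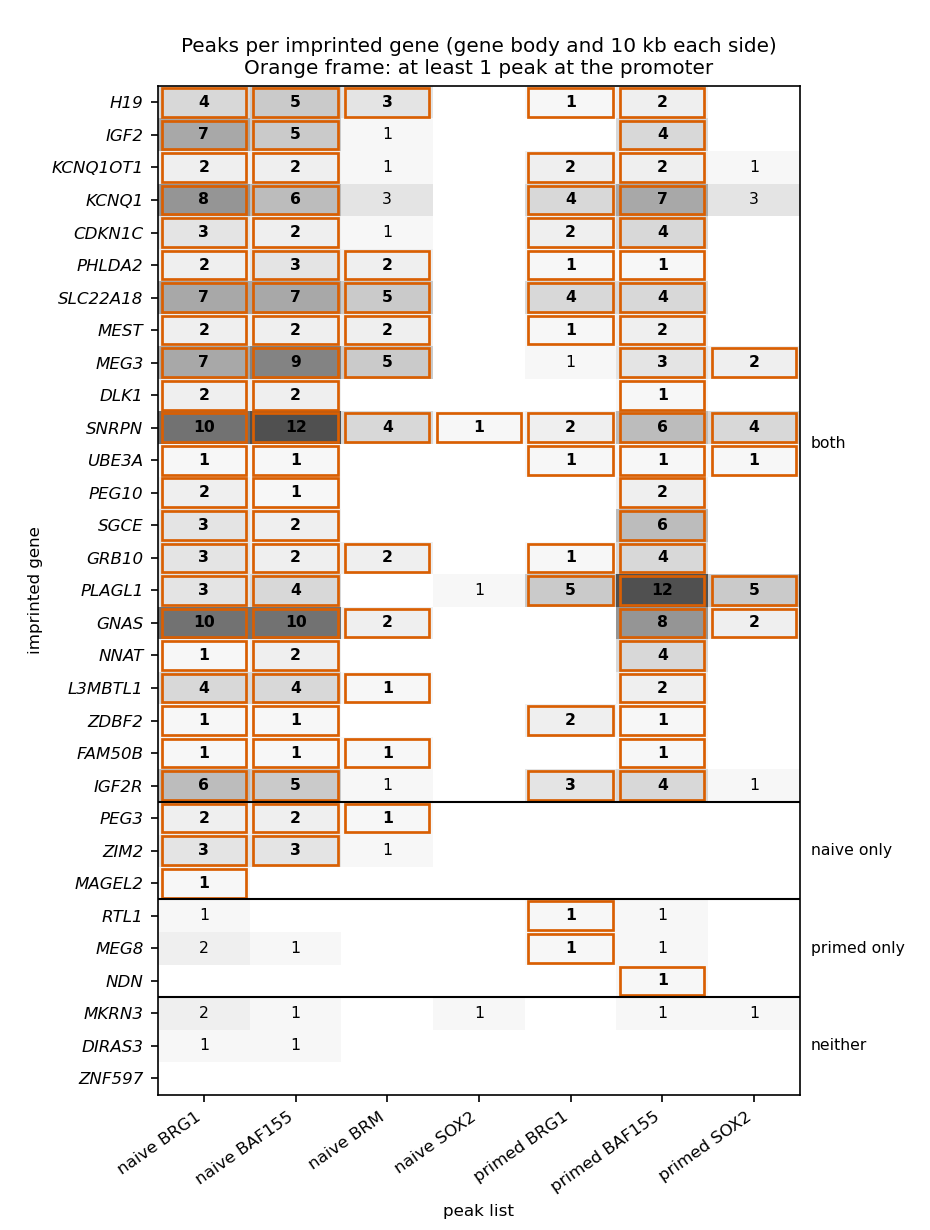
Peaks per imprinted gene (rows) and peak list (columns), as the number in the gene body and 10 kb on each side, with darker grey for more peaks, blank for 0 and an orange frame where at least 1 peak lay at a promoter. Rows are grouped by the state in which a BRG1 or BAF155 peak lay at a promoter, and 22 genes fall under both states, 3 under naïve only, 3 under primed only and 3 under neither.

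To ask which promoters differed between the states, BRG1 and BAF155 were combined as BAF. At 22 imprinted genes a BAF peak lay at a promoter in both states, the class of 46.1% of all genes and 66.5% of protein-coding genes. PEG3, ZIM2 and MAGEL2 had one in naïve cells only (7.39% of all genes and 6.48% of protein-coding genes). NDN, RTL1 and MEG8 had one in primed cells only (6.3% and 6.34%), and MKRN3, DIRAS3 and ZNF597 in neither (40.2% and 20.7%). The naïve-only and primed-only counts of 3 in 31 were thus near the background. Of the 22 shared promoters, 21 held a region common to both states, and MEG3 alone had only regions particular to a state. A naïve-only region lay at 7 of the 22 and a primed-only region at 6, with MEG3 among both. The matching shares over all genes were not computed. By BRG1 alone, 13 genes were marked in both states (21.8% of all genes), 12 in naïve cells only (26.5%), 2 in primed cells only (1.57%) and 4 in neither (50.1%). By BAF155 alone, 22 were marked in both (42.6%), 2 in naïve cells only (5.56%), 1 in primed cells only (9.74%) and 6 in neither (42.1%).

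The genes were then split by the allele that is usually expressed. Of 19 paternally expressed genes, 12 had BAF at a promoter in both states, 3 in naïve cells only, 2 in primed cells only and 2 in neither. Of 9 maternally expressed genes, 7 had BAF in both states, 1 in primed cells only and 1 in neither. GRB10, GNAS and IGF2R, whose imprint depends on the isoform or the person, all had BAF in both. For 14 genes a promoter lies in a germline region that is methylated on the maternal chromosome. A peak at any start of a gene was counted, so it could lie at a start outside the germline region. At SNRPN, for example, primed BRG1 lay at other starts than the GENCODE canonical one. Among these 14 genes, naïve BRG1 marked 13 and primed BRG1 marked 5, against 12 and 10 of the other 17. Naïve BAF155 marked 13 of the 14 and primed BAF155 11, against 11 and 12 of the other 17. These BRG1 lists differed in length. At equal length naïve BRG1 marked 7 and primed BRG1 5 of the 14, and 6 and 10 of the other 17, so that the direction turned in the second group. Over all genes the shares at equal length were 13.5% in naïve and 23.3% in primed cells. The difference between the groups was not tested.

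PEG3, a paternally expressed zinc finger gene (chr19:56810077-56840728, minus strand), and ZIM2, which shares its start, formed the one locus with more than 1 BAF region and none in primed cells. Over the merged window of both, naïve cells had 3 BRG1, 3 BAF155 and 1 BRM peaks and primed cells had 0 in every list. One site lay in the first part of the gene, downstream of the start, with BRG1 at chr19:56836928-56838534 (fold over input 2.89), BAF155 at chr19:56837230-56838836 (3.01) and BRM at chr19:56837088-56837498 (2.83). The other lay just upstream of the start, with BAF155 at chr19:56840858-56841090 (3.47) and BRG1 at chr19:56840876-56841051 (3.25). The fold is the enrichment over input that the authors' peak caller gave. These were mid-range calls, the strongest being in the top 14.2% of its list. All 4 BAF regions of the window were naïve-only. Of these, the BRG1 peak at chr19:56764190-56764552, which only touched the edge of the window, stood without BAF155. The BAF155 peak at chr19:56795150-56795515 stood without BRG1.

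H19, a maternally expressed lncRNA gene (chr11:1995166-2004552, minus strand), had 4 BRG1, 5 BAF155 and 3 BRM peaks in the naïve state, and 1 BRG1 and 2 BAF155 peaks in primed cells. Its strongest site lay at the GENCODE canonical start, upstream of the RefSeq start at position 2001266. There naïve BRG1 peaked at chr11:2004094-2004772 with a fold of 4.69, in the top 1.69% of its list, and was the naïve BRG1 peak of highest fold at any imprinted gene. Naïve BAF155 had a fold of 4.60 at this site, naïve BRM 3.44, primed BRG1 4.13 and primed BAF155 3.88, so every BAF list held it. The wide naïve BRG1 peak with the 4 CTCF-form matches printed above had a lower fold of 2.80. Naïve BAF155 at chr11:2001436-2002190 (2.91) and primed BAF155 at chr11:2001743-2002617 (2.82) overlapped it, and primed BRG1 had no peak there. Another site lay downstream of the RefSeq start but within 1 kb of another annotated start, and so counted as a promoter site. It carried naïve BRG1 at chr11:1997982-1999922 (2.92), BAF155 (2.91) and BRM (3.49), and no primed list had a peak there.

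IGF2, the paternally expressed growth factor gene of the same domain, had in naïve cells 7 BRG1, 5 BAF155 and 1 BRM peaks, and in primed cells 0 BRG1 and 4 BAF155 peaks. Of its BAF regions 4 were naïve-only, 1 primed-only and 3 common. KCNQ1OT1, a paternally expressed antisense lncRNA gene inside the maternally expressed potassium channel gene KCNQ1, had BRG1 and BAF155 at its promoter in both states. Its promoter peaks in naïve BAF155 (fold 3.35) and primed BAF155 (3.50) covered nearly the same stretch. Each held 6 TGCCGC matches, part of them in the sequence printed above. The neighbours CDKN1C, an inhibitor of the cell cycle, PHLDA2, a gene that limits placental growth, and SLC22A18, a transporter gene, also had both subunits at a promoter in both states. The primed BRG1 peak at the PHLDA2 promoter, chr11:2929618-2930495, had a fold of 4.39, the third highest of its list at imprinted genes.

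MEG3, a maternally expressed lncRNA gene (chr14:100779410-100861031, plus strand), had 7 BRG1, 9 BAF155 and 5 BRM peaks in the naïve state, and 1 BRG1, 3 BAF155 and 2 SOX2 peaks in primed cells. Within 1 kb of its RefSeq start, at position 100826108, lay naïve BRG1 at chr14:100825656-100826244 (fold 2.74) and naïve BAF155 at chr14:100825187-100825930 (2.60). No primed list had a peak within that reach. A naïve-only site further upstream carried BRG1 (4.17), BAF155 (4.08) and BRM at chr14:100821023-100821321 (4.23), the last being the naïve BRM peak of highest fold at any imprinted gene. Primed BAF155 (3.48) and primed SOX2 (13.0) instead met at chr14:100830220-100831001, a stretch without a naïve peak. Over the merged MEG3, RTL1 and MEG8 windows, 9 BAF regions were naïve-only, 3 primed-only and 2 common.

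RTL1, a paternally expressed retrotransposon-derived gene, and MEG8, a lncRNA gene running opposite to it, counted as primed only through the same primed BRG1 peak, chr14:100904481-100904741 (fold 3.97). DLK1, the paternally expressed signalling gene of the domain, had naïve BRG1 and BAF155 and primed BAF155 at its promoter.

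SNRPN, a paternally expressed splicing gene in the Prader-Willi region (chr15:24823637-24978723, plus strand), had 10 BRG1, 12 BAF155, 4 BRM and 1 SOX2 peaks in naïve cells, and 2 BRG1, 6 BAF155 and 4 SOX2 peaks in primed cells. Its starts differed. At the upstream start at position 24856571, every list had a peak, with SOX2 at chr15:24856486-24856819 in naïve cells (fold 12.7) and at chr15:24856509-24856816 in primed cells (10.6). At the first annotated start, only primed lists had peaks, with SOX2 at chr15:24823585-24823899 (10.6), BAF155 (4.54) and BRG1 (3.75). At the GENCODE canonical start, position 24954987, only naïve lists had peaks within 1 kb, with BAF155 at chr15:24954596-24954961 (3.09) and BRG1 at chr15:24954730-24954930 (2.77). The primed SOX2 peaks at the first 2 of these starts resembled each other in sequence. A local alignment of 289 columns had 222 identical bases (76.8%), and the octamer form printed above lay in both.

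Other genes of the Prader-Willi region had few peaks. MAGEL2, which encodes a protein of the MAGE family, counted as naïve only through 1 BRG1 peak, chr15:23647547-23647842 (fold 2.80). NDN, a member of the same family, counted as primed only through 1 BAF155 peak, chr15:23686340-23686637 (2.63), near the bottom of its list at the top 96.0%. MKRN3, a ring finger gene, had no peak within 1 kb of a start but carried SOX2 in both states far inside its annotated body, at chr15:23628671-23628905 in naïve (7.02) and chr15:23628731-23629091 in primed cells (5.61). UBE3A, the maternally expressed ubiquitin ligase gene, had BRG1 and BAF155 at its promoter in both states and SOX2 in primed cells (4.26). The calls at MAGEL2 and NDN thus rested on 1 peak each. They were lost under other settings, that of MAGEL2 at equal list length and at −log10 q of at least 3, and that of NDN with a reach of 500 bp and at the same q. RTL1 and MEG8 likewise had no promoter peak left at that q, RTL1 none with the shorter reach and MEG8 none at its canonical start. PEG3 and ZIM2 kept their naïve peaks under all of these. At a fold of at least 4, none of the 6 genes had a difference between the states.

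PLAGL1, a paternally expressed zinc finger gene that restrains growth (chr6:143940300-144064599, minus strand), had more primed-only than naïve-only BAF regions, as did PEG10 with SGCE (4 against 0), NNAT (2 against 0), GRB10 (2 against 1) and NDN (1 against 0). PLAGL1 had 3 BRG1, 4 BAF155 and 1 SOX2 peaks in naïve cells, and 5 BRG1, 12 BAF155 and 5 SOX2 peaks in primed cells, with 9 primed-only, 1 naïve-only and 3 common BAF regions. A BAF155 peak at one of its starts, chr6:143964625-143965091, had the highest fold of any primed BAF155 peak at an imprinted gene, 7.07 (top 0.785% of the list), and a naïve BAF155 peak lay at the same start (4.03). An intronic site at chr6:143973026-143973590 carried primed SOX2 (19.3), primed BRG1 (5.20) and primed BAF155 (5.89) and no naïve peak. The naïve SOX2 peak counted for the gene, chr6:143929996-143930341 (5.25), had no primed SOX2 partner. It only reached into the edge of the downstream flank, which ends at position 143930300. Its midpoint and the stretch printed above lay outside the window.

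**Figure D3:**
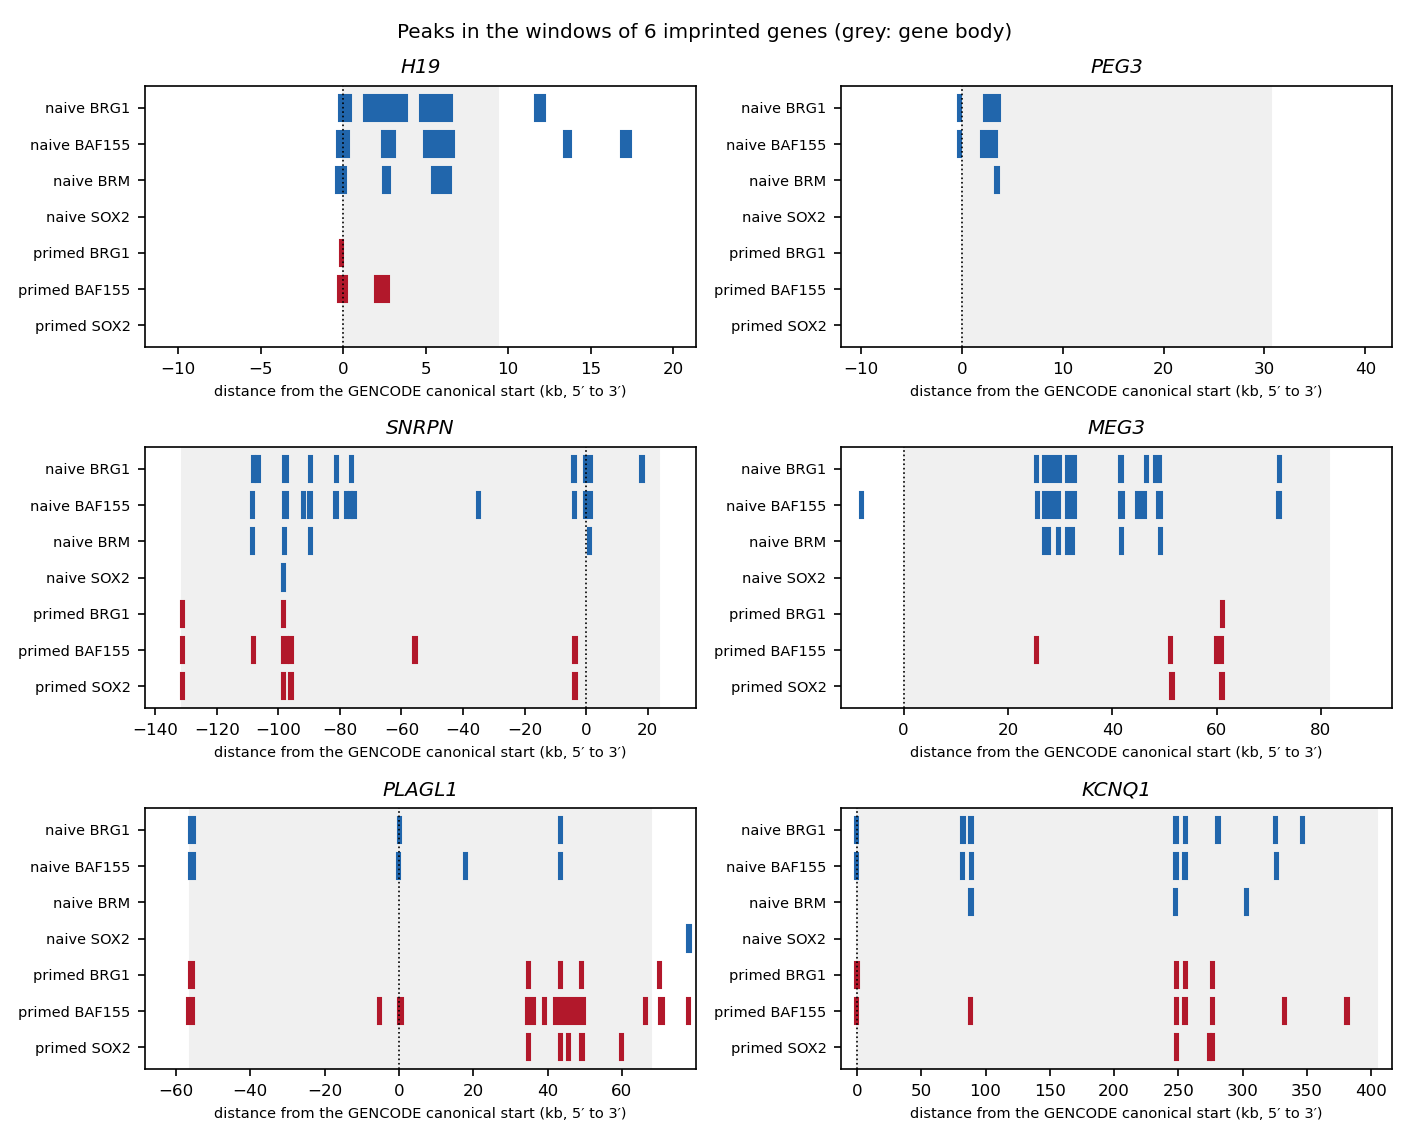
Peaks of 7 lists (rows, blue naïve and red primed) in the windows of 6 imprinted genes, against the distance in kb from the GENCODE canonical start in the direction of transcription. Grey marks the gene body and the dotted line the start, and bars are drawn at the width of the peak or at a minimum width where it would not be visible. PEG3 shows no red bar, whereas at PLAGL1 red bars outnumber blue ones.

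The remaining genes had BAF at a promoter in both states, except DIRAS3 and ZNF597. GNAS, which encodes the stimulatory G protein alpha subunit, had 10 BRG1, 10 BAF155 and 2 BRM peaks in the naïve state, and 0 BRG1, 8 BAF155 and 2 SOX2 peaks in primed cells. IGF2R, the receptor that clears IGF2, carried a naïve-only intronic site at chr6:160005903-160006627, within the annotated span of the antisense lncRNA gene AIRN. Its BAF155 fold of 5.53 was the highest of any naïve BAF155 peak at an imprinted gene (top 0.725%), and BRG1 (4.64) and BRM (3.48) lay there too. GRB10, a growth factor receptor adaptor gene, had peaks of all 3 naïve BAF lists and both primed ones at its promoters, at 2 sites. One carried naïve BRG1 at chr7:50782282-50783039 (fold 4.50) and naïve BAF155 at chr7:50782110-50783221 (4.10). At the other lay primed BRG1 at chr7:50792658-50792961 (4.72) and naïve BRM at chr7:50793634-50793792 (3.92). Naïve BRG1 (3.58) and naïve BAF155 (4.00) lay there too. Naïve BRM also had a peak at the former site, and primed BAF155 had peaks at both. Only primed BRG1 was missing from the former site. PEG10, SGCE, NNAT, L3MBTL1 and FAM50B had naïve BRG1 and BAF155 but primed BAF155 alone at a promoter, while MEST and ZDBF2 had both subunits in both states. DIRAS3 had 1 naïve BRG1 and 1 naïve BAF155 peak outside its promoters, and ZNF597 had no peak of any list in its window, as did 16.8% of all genes and 9.15% of protein-coding genes.

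**Figure D4:**
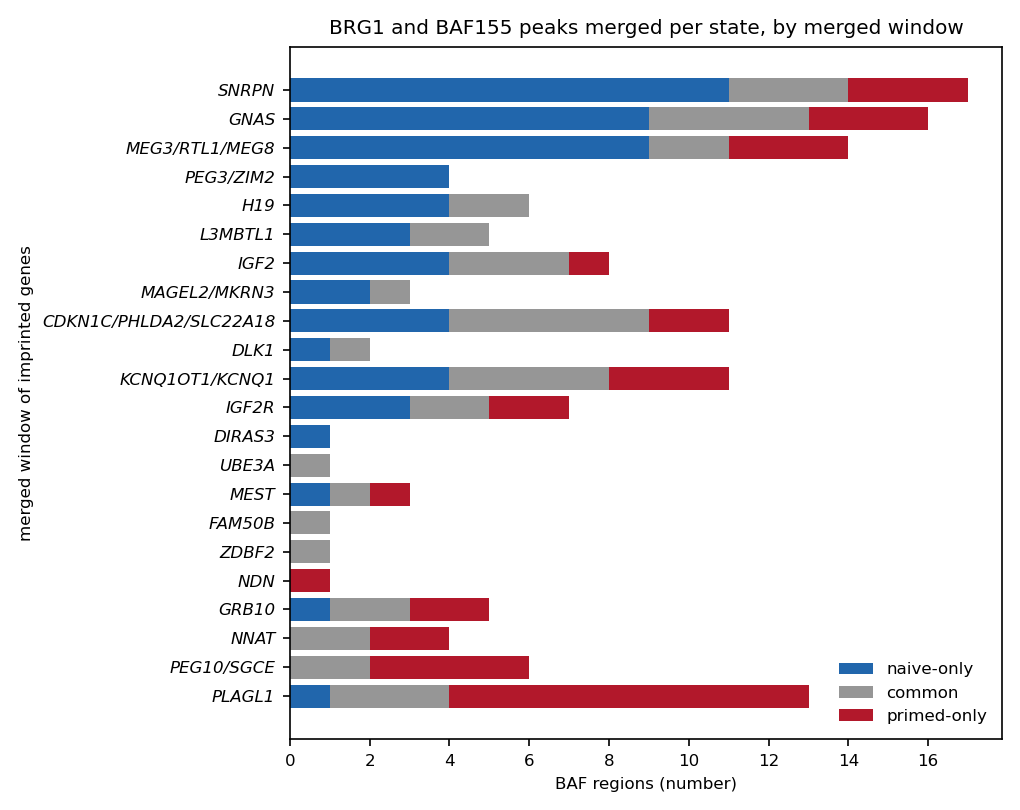
Number of BAF regions (horizontal axis), from BRG1 and BAF155 peaks merged within a state, in each merged window that had any (vertical axis). Blue regions were naïve-only, red regions primed-only and grey ones common to both. SNRPN has 11 naïve-only regions, GNAS and the MEG3, RTL1 and MEG8 window 9 each, and PLAGL1 9 primed-only regions.

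Summed over the 23 merged windows, 62 BAF regions were naïve-only, 36 primed-only and 42 common, where a common region had at least 25% of either partner covered. Their densities were 1.61, 1.49 and 1.90 times those of the whole genome, which includes stretches far from any gene. Among 31 naïve BRM peaks at imprinted genes, 30 overlapped BAF of the naïve state and 14 BAF of the primed state, and for the whole BRM list the naïve share was 94.3%. The share of the whole BRM list in primed BAF was not computed, so the count of 14 has no background.

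SOX2 was examined in the same way. In primed cells, 19 SOX2 peaks fell in the windows of KCNQ1OT1, KCNQ1, MEG3, SNRPN, MKRN3, UBE3A, PLAGL1, GNAS and IGF2R, and 15 of them lay in a primed BAF region (88.4% of the whole list). All 3 naïve SOX2 peaks, at SNRPN, MKRN3 and PLAGL1, lay in a naïve BAF region (93% of the list). Of the 19 primed peaks, 2 coincided with a naïve SOX2 peak, at SNRPN and MKRN3 (10% of the list). The strongest was an intronic site of KCNQ1, chr11:2721123-2721496, with a fold of 24.2 in the top 0.646% of the list. Primed BAF155 (6.24) and BRG1 (4.30) peaked there and no naïve list did. A further site in KCNQ1OT1, chr11:2693291-2693700, had a SOX2 fold of 16.7 and lay in a BAF region in both states, with primed BAF155 at chr11:2692644-2694404 (6.23). Elsewhere in KCNQ1, the naïve BRM peak chr11:2532855-2534451 (4.20) had BAF of both states and no SOX2. The other primed SOX2 peaks not described above were at KCNQ1 (5.78), MEG3 (8.86), SNRPN (5.67 and 11.2), PLAGL1 (from 4.11 to 6.74), GNAS (3.66 and 8.43) and IGF2R (6.56).

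**Figure D5:**
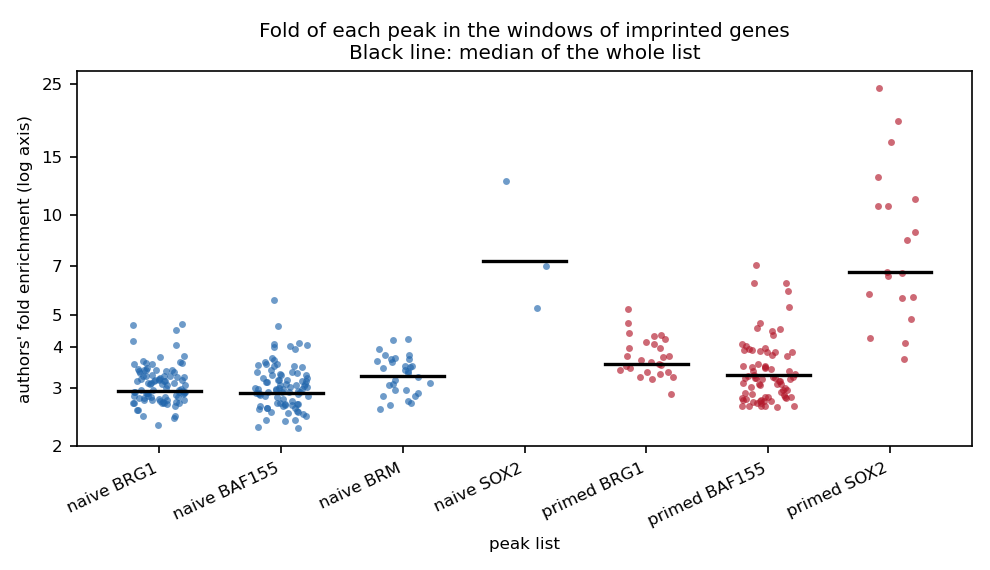
Fold over input, as given by the authors' peak caller (vertical log axis), of each peak in the windows of imprinted genes for the 7 lists (horizontal axis), with the median of the whole list as a black line. The points of the naïve lists, in blue, and of the primed lists, in red, spread around the line in every list, and primed SOX2 reaches from 3.66 to 24.2.

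Peaks at imprinted genes were about as strong as the rest of their lists. The median fold was 3.07 against 2.93 over the list for naïve BRG1, 2.99 against 2.89 for naïve BAF155 and 3.37 against 3.27 for naïve BRM. In primed cells it was 3.63 against 3.54 for BRG1, 3.21 against 3.28 for BAF155 and 6.74 against 6.73 for SOX2. Folds of different antibodies are not on a shared scale.

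The letters of the peaks were then compared with those of whole lists, over the central 300 bases of each peak and on both strands. TGCCGC was found in 25.3% of the naïve BRG1 peaks at imprinted genes and 12.2% of the list, and in 23% and 10.8% for naïve BAF155. For naïve BRM the shares were close, 12.9% and 11%. For primed BAF155 they were 21.8% and 11.9%, whereas for primed BRG1 they were 7.41% (2 of 27) and 19.2%. The CTCF form was found in 5.75% of naïve BAF155 peaks at imprinted genes (5 of 87) and 1.25% of the list. That form is known from the H19 control region, but no naïve BAF155 or naïve BRM peak at H19 held it anywhere along its length. The 4 matches of the naïve BRG1 peak at H19 lay outside its central 300 bases. For naïve BRG1 the shares were 3.3% (3 of 91) and 1.49%, for naïve BRM 6.45% (2 of 31) and 1.56%, for primed BRG1 3.7% (1 of 27) and 2.81%, and for primed BAF155 1.28% (1 of 78) and 1.24%. Among primed SOX2 peaks, 14 of 19 (73.7%) held a SOX core, against 67.7% of the list, and 3 (15.8%) held the octamer form, against 18.7%. The naïve BRG1 peaks at imprinted genes also had a median GC content of 58%, against 52.7% over the list, and the part of base composition in these shares was not tested.

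RefSeq promoters, 300 bases around the start in the GRCh38 assembly, were matched for 18 of the 31 genes. A single RefSeq start was taken per gene. It was not the GENCODE canonical start at SNRPN, GRB10, PLAGL1 and MEST, among others, so other promoters of these genes were not covered. TGCCGC occurred in 7 of them (38.9%) and in 16.7% of all 35114 RefSeq promoters. SOX cores occurred in 0 of the 18 and in 24.5% of all. The median ratio of observed to expected CpG was 0.713 in the 18 and 0.579 in all. A match says only that these letters are present.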

How the data were processed

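ChIP-seq peak lists of WIBR3 hESCs were used as deposited. According to the study's methods and the submitters' processing notes, reads were checked with FastQC 0.10.1, trimmed, mapped to hg38 with Bowtie2 2.3.4, freed of duplicates with SAMtools 0.1.19 or PICARD, and called with MACS2 against input, as narrow peaks for SOX2 and broad peaks for BAF subunits. Whether libraries were pooled is not given in the sources used here.

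The deposited lists give positions and, in 7 of them, the authors' score, a fold enrichment ratio over input, and −log10 of p-values and q-values. Only positions were given for primed BRM and for SOX2 replicate 2 of both states. The score and the p-value were not used. Positions, fold and −log10 q were used to count, rank and filter peaks. The lowest −log10 q was between 1.00 and 1.01 in the BAF lists, 1.31 in naïve SOX2 and 1.35 in primed SOX2. All peaks lay within the hg38 chromosome lengths.

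Windows were GENCODE release 44 gene bodies with 10 kb on each side, and promoters reached 1 kb around every transcript start. Peaks of a state overlapped by the study's rule, at least 25% of either region. Python 3.11.15, NumPy 2.4.6, Biopython 1.88 and Matplotlib 3.10.9 were used, and the overlap functions were tested on simulated data. Fully described were genes with BAF at a promoter in 1 state only, genes with SOX2 in the window and the 3 highest-fold peaks per list at imprinted genes, and the others by counts. The imprinted genes, their groups and the further gene lists were chosen with earlier results of these data known. With 1 distinct list per antibody and state, no test was made and no precision could be given. Alternative reaches, flanks, thresholds, list lengths and overlap rules were tried.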

Additional observations from a re-analysis of the deposited data

How the results depend on the processing

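No paired analysis was possible because both SOX2 lists of a state had identical coordinates and every other group had 1 library. Of 265 values recomputed under other settings, 146 stayed within 1.5 times the reported count (or, for a gene's naïve minus primed promoter peaks, kept their value), and 119 moved. Several comparisons between the states turned, for BAF155 too at a fold of at least 4. Among them, promoters with BRG1, 25 naïve and 15 primed as reported, became 13 and 15 at equal list length and 3 and 4 at a fold of at least 4, windows with BRG1, 29 and 16, became 5 and 8 at that fold, and 62 naïve-only and 36 primed-only regions became 4 and 11. The split of BRG1 by germline region and the count of windows with more naïve or more primed BRG1 at equal length were chosen after seeing the data. Without a flank all 19 values stayed. Leaving out either SOX2 library could not change a count, because both lists of a state had identical coordinates. The 8 values recomputed for each such omission, with 1 and 5 promoters among them, are part of the 146 that stayed. Reads per library and missing calls limit every count. Where counts fell under a stricter threshold, fewer peaks were left by construction.

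At −log10 q of at least 3, promoters with a peak numbered 10 for naïve BRG1, 13 for naïve BAF155, 1 for naïve BRM, 4 for primed BRG1, 13 for primed BAF155 and 3 for primed SOX2. Windows with a peak numbered 15, 16 and 5 in naïve BRG1, BAF155 and BRM, and 8 and 17 in primed BRG1 and BAF155. BAF marked promoters of 8 genes in both states, 7 in naïve cells only, 5 in primed cells only and 11 in neither. Merged windows held 26, 31 and 7 naïve BRG1, BAF155 and BRM peaks and 8 and 32 primed BRG1 and BAF155 peaks, with 27 naïve-only, 22 primed-only and 11 common regions, and 1 naïve SOX2 peak in a BAF region.

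At a fold of at least 4, promoter counts were 3, 3 and 0 for naïve BRG1, BAF155 and BRM and 4 and 4 for primed BRG1 and BAF155, and window counts were 5, 5, 2, 8 and 8. BAF marked 3 promoters in both states, 1 in naïve cells only, 2 in primed cells only and none at 25. Merged windows held 5, 6, 2, 8 and 12 peaks of those lists, 4 naïve-only, 11 primed-only and 3 common regions, and 0 naïve and 7 primed SOX2 peaks in BAF regions.

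With lists of equal length, naïve BRG1 had 13 promoters, 18 windows and 31 peaks, primed SOX2 had 2, 5 and 7, and 1 naïve and 7 primed SOX2 peaks lay in BAF regions. With flanks of 50 kb, 7 naïve and 18 primed SOX2 windows had a peak, and merged windows held 156, 142, 52 and 5 naïve BRG1, BAF155, BRM and SOX2 peaks, 128 primed BAF155 peaks, 120 naïve-only, 63 primed-only and 65 common regions, and 5 naïve SOX2 peaks in BAF regions. With a reach of 500 bp, 1 gene was primed only and 5 neither. With canonical starts only, 7 promoters had naïve BRM, 0 naïve SOX2 and 1 primed SOX2, and 5 had BAF in neither state. BRG1 alone gave 13 in both and 12 naïve only, and BAF155 alone 1 primed only and 6 neither. With 50% of both regions covered, 25 regions were common, and 1 naïve and 3 primed SOX2 peaks lay in BAF regions. The cause of these moves was not tested beyond the settings' construction.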

Other observations

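Further imprinted genes were counted in the same way. Of 29 such genes, which include neighbours of those above, 21 had BAF at a promoter in both states, 3 in naïve cells only, 0 in primed cells only and 5 in neither. Among all genes these classes held 46.1%, 7.39%, 6.3% and 40.2%, and among protein-coding genes 66.5%, 6.48%, 6.34% and 20.7%. The naïve-only genes were SNURF, which shares the canonical start of SNRPN, MIMT1, whose start lies in the peak upstream of PEG3, and NLRP2, a gene of the NLR family. NLRP2 had 9 BRG1, 9 BAF155, 2 BRM and 1 SOX2 peaks in its naïve window, and 0 BRG1, 1 BAF155 and 1 SOX2 peaks in its primed window.

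Of 10 genes for factors that keep or read imprints, 7 had BAF at a promoter in both states, 2 in naïve cells only and 1, CTCFL, in neither. Among all genes these classes held 46.1%, 7.39% and 40.2%, and among protein-coding genes 66.5%, 6.48% and 20.7%. ZFP57, whose product reads methylated control regions, had 6 BRG1, 6 BAF155 and 2 BRM peaks in its naïve window, and 0 BRG1, 2 BAF155 and 1 SOX2 peaks in its primed window, none of the primed ones at a promoter. DPPA3, whose product protects the maternal genome from demethylation in the zygote, had 6 BRG1, 5 BAF155 and 1 BRM peaks in the naïve state, and 0 BRG1 and 1 BAF155 peaks in primed cells. It is also one of the naïve markers used to check the labels.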
